A study of Homo sapiens with 10 samples.

Results

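The mitosis and G2/M genes described here are 50 genes that act between the end of DNA replication and the separation of daughter cells. They were measured in PC-3 cells, an androgen-independent human prostate cancer line, on 10 single-color Agilent whole-genome arrays. Untreated cells at 0 h were compared with cells exposed for 24 h to the solvent DMSO, to 60 µM luteolin (a plant flavonoid), to 60 µM gefitinib (an inhibitor of the EGF receptor kinase) or to both drugs, with 2 biological replicates per group. Both drugs were added in DMSO, so that the DMSO group is the vehicle control and the 0 h group received nothing. Of the 50 genes, 49 were found among the 30484 gene names of the arrays, and all 49 were among the 20952 genes whose signal was sufficient to be tested. DLGAP5, which encodes a spindle protein, was not found under that name and is described separately under its older symbol. Each gene was represented by its brightest probe, and unless stated otherwise each value below is a log2 signal from which the 75th percentile of that array was subtracted.

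Entry into mitosis is driven by cyclin-dependent kinase 1 (CDK1) bound to B-type cyclins, which the CDC25 phosphatases switch on. Polo-like and Aurora kinases then build the spindle, the spindle checkpoint delays the anaphase-promoting complex until every chromosome is attached, and that complex marks cyclin B and securin for destruction so that chromosomes can part. The mRNAs of most of these genes are scarce in G1, where the DREAM complex holds them down, and are most abundant in G2 and M, when MYBL2 and FOXM1 activate them, so their summed level follows the share of cycling cells. In bulk RNA, fewer cells in G2 or M and less of these mRNAs per cell cannot be told apart.

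The names of the 6 scanner files of drug-treated cells carried other treatments than the sample labels. Files of the samples labelled luteolin were named for gefitinib, those labelled gefitinib for the combination, and those labelled as the combination for luteolin. Arrays are named here by the sample labels, with the counts by file name beside the results that turn on them. The 75th percentile of an array lay between 539.8 and 865 in the groups labelled gefitinib and luteolin plus gefitinib and between 1041 and 1402 in the others, and the part of this in the results was not tested. Between 63.4% and 70.4% of probes were well above background, and arrays of a group correlated at 0.982 to 0.995 across probes, which are not independent replicates. KRT8, KRT18, VIM and CD44, which PC-3 cells are known to express, were well above background on all 10 arrays. KLK3 (prostate-specific antigen), expected to be low in PC-3, was not well above background with 2 of its probes but was so on all 10 arrays with the third, at a signal of 13030 to 22098.

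Nearly all of the mitotic genes were lower after 24 h in the samples labelled luteolin, and many were lower in the other drug-treated groups. Relative to DMSO, 46 of 49 fell and 0 rose in the samples labelled luteolin, at an adjusted p under 0.05 in limma and a change of at least 2-fold, against 6.13% of all genes tested that fell and 7.04% that rose. In the samples labelled gefitinib, 26 of 49 fell and 0 rose, against 14.1% and 16.6% of all genes. In the samples labelled luteolin plus gefitinib, 39 of 49 fell and 0 rose, against 7.45% and 12.1% of all genes. At an unadjusted p under 0.05 in limma, 1, 2 and 0 of the genes were higher in these 3 groups. In either direction, 49, 35 and 45 of the 49 passed this, against 7903, 12952 and 10940 of all 20952 genes tested. The median log2 change of the 49 genes was -2.13, -1.07 and -1.48 in the same order, where the median of all genes tested was 0.08, 0.24 and 0.19. Both arrays lay below both DMSO arrays for 48, 40 and 47 of the 49 genes (32.4%, 32.1% and 29.1% of all genes) and above both for 1, 3 and 0 (41.1%, 50.2% and 46.5%). Quantile normalization moved the median of all genes to 0.06 and 0.02 in the last 2 groups, and that of the 49 genes to -1.24 and -1.58. The share of all calls that were higher was 54.1% labelled gefitinib and 61.9% with both drugs, against 41.6% and 45.1% after quantile normalization and 68.1% and 72.0% after normexp background correction. The heat map of the 49 genes shows this array by array.

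**Figure D1:**
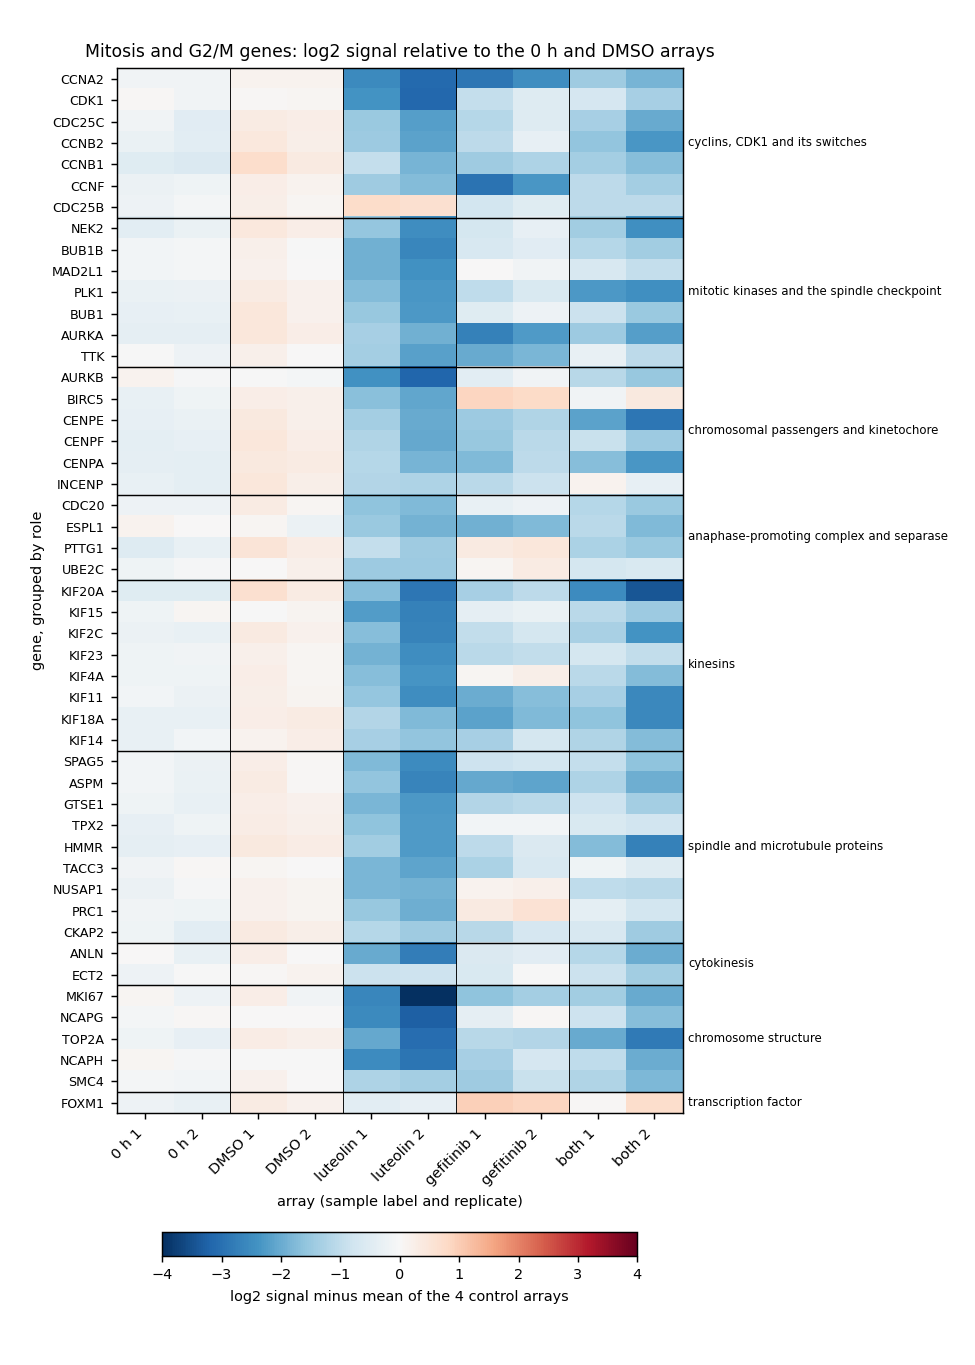
Log2 signal of the 49 mitosis and G2/M genes (vertical axis, grouped by role) on each of the 10 arrays (horizontal axis, "both" being luteolin plus gefitinib), minus the mean of the 4 arrays at 0 h and with DMSO. Blue is lower and red higher than these controls, and the second column labelled luteolin has the lowest median, -2.19, followed by the second with both drugs, -1.59, and the first labelled luteolin, -1.56.

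The replicates of the drug-treated groups differed in depth of the fall. On the 2 arrays labelled luteolin, the median of the 49 genes relative to the 4 control arrays was -1.56 and -2.19, and the second replicate was the lower for 46 of 49 genes. With both drugs it was -1.07 and -1.59, again with the second replicate lower for 46 of 49 genes. In the samples labelled gefitinib it was -1.05 and -0.65, and the second replicate was lower for 6 of 49. The shares of all genes that were lower on the second replicate were not counted. The median SD of a mitotic gene between arrays was 0.43 in the groups labelled luteolin and luteolin plus gefitinib, where that of all probes was 0.14 and 0.25, and 0.10 with DMSO, where that of all probes was 0.09. One slide held the first replicates of DMSO and of all 3 drug-treated groups, and another held the second replicates of all of these but gefitinib, which allowed comparison within a slide. On the former, 48, 45 and 49 of 49 genes were lower than with DMSO for luteolin, gefitinib and both drugs, with medians of -1.90, -1.35 and -1.34. On the latter, 48 and 47 genes were lower for luteolin and for both drugs, with medians of -2.43 and -1.70. Within a slide, all genes were not counted. Over all arrays, the changes labelled luteolin, gefitinib and both drugs were negative for 48, 43 and 48 of the 49 genes. For all 20952 genes tested, they were negative for 9252, 8497 and 8552.

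Of the 49 genes, 23 fell in all 3 drug-treated groups, against 0.811% of all genes, and this count does not depend on which drug label is right. They were CCNA2, CCNB1, CCNB2, CCNF, CDC25C, PLK1, AURKA, CENPA, CENPE, CENPF, ESPL1, KIF2C, KIF11, KIF14, KIF18A, KIF20A, HMMR, GTSE1, ASPM, CKAP2, SMC4, TOP2A and MKI67. A further 14 fell in the samples labelled luteolin and in those labelled luteolin plus gefitinib. These were CDK1, NEK2, BUB1, BUB1B, AURKB, CDC20, PTTG1, KIF4A, KIF15, NUSAP1, SPAG5, ANLN, NCAPG and NCAPH. INCENP, KIF23 and TTK fell with either label alone but not with both. BIRC5, MAD2L1, PRC1, TACC3, TPX2 and UBE2C passed as a fall only in the samples labelled luteolin. CDC25B and ECT2 did so only in those labelled luteolin plus gefitinib, and FOXM1 in none. The 3 comparisons share the DMSO arrays, and a call in one group and not in another is no test of the difference between them. Just outside the 2-fold minimum were TACC3 labelled gefitinib, at -0.997, KIF23 labelled luteolin plus gefitinib, at -0.99, NCAPH labelled gefitinib, at -0.97, and ECT2 labelled luteolin, at -0.95.

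Some of these calls rested on 1 array. Without the first replicate labelled gefitinib, 17 of the 26 falls labelled gefitinib were still called, and CCNB2, CDC25C, CKAP2, HMMR, KIF14, KIF2C, MKI67, PLK1 and SMC4 were not. Without the first DMSO replicate, 18 of the 26 were called, and CCNB2, CDC25C, HMMR, KIF20A, KIF2C, MKI67, PLK1 and TOP2A were not. With both drugs, 32 of 39 falls were still called without that group's second replicate, and CDK1, CKAP2, ECT2, ESPL1, MKI67, NCAPG and NCAPH were not, and 33 without the first DMSO replicate, when AURKB, CDK1, CKAP2, MKI67, NCAPG and NCAPH were not. Labelled luteolin, KIF11 and KIF18A lost their call without the second replicate, and no other call of that group was lost without any 1 array. In all, 44 of 46, 15 of 26 and 31 of 39 falls labelled luteolin, gefitinib and both drugs were called whichever array was left out.

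The sequence upstream of the starts of these genes was searched for the elements known from G2/M promoters. As the genes were chosen for their part in G2 and mitosis, the shares below describe the list and are no result of the drugs. These are the cell cycle homology region, searched as the hexamer TTTGAA together with its less frequent form TTCGAA, and a box bound by the factor NF-Y, searched as CCAAT. Each was searched on both strands. RefSeq promoters (GRCh38.p14) were found for 44 of the 50 genes, with 55 start sites among them, and the 250 bases before each start were read. Of the 55 windows, 29 (52.7%) held either form of the hexamer, against 14.3% of 35116 windows of all promoters, and 28 (50.9%) held TTTGAA, against 13.3%. A CCAAT box was present in 39 of 55 (70.9%) against 32% of all windows, and at least 2 of them in 21 of 55 (38.2%) against 9.53%. Both kinds of element were present in 23 of 55 (41.8%) against 5.05%. Windows of a gene with several start sites can overlap, and each was counted. A window is shown for each of 5 genes described below, with matches to the hexamer and to the CCAAT box on either strand in capitals. Where a gene had several windows, one with the most matches was taken.
CCNB1: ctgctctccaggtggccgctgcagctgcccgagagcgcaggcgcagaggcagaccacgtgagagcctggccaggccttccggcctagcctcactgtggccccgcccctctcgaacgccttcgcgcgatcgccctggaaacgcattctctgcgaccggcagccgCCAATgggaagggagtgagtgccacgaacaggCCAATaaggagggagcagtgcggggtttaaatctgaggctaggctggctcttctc
CCNB2: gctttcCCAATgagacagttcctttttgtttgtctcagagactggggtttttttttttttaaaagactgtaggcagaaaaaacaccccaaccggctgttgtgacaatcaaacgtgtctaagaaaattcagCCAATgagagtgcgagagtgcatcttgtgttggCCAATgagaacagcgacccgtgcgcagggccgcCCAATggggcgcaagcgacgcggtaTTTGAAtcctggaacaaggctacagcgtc
PLK1: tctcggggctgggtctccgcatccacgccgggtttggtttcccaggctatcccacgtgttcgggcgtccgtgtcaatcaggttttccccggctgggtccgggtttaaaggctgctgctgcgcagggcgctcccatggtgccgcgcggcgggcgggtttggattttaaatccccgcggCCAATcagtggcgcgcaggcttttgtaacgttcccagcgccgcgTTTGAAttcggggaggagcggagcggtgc
HMMR: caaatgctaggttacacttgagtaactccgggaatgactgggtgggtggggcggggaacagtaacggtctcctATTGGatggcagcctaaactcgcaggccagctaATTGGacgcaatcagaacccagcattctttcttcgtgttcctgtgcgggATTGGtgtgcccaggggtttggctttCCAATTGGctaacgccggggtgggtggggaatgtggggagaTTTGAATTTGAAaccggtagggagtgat
PTTG1: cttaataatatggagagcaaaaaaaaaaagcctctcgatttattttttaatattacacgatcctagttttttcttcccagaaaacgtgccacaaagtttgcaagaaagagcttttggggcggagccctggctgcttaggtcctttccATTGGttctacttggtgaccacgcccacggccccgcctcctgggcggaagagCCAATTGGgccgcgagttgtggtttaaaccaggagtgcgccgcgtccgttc
All 5 lie on the plus strand, at chr5:69166900-69167149 for CCNB1, chr15:59104896-59105145 for CCNB2, chr16:23678639-23678888 for PLK1, chr5:163460382-163460631 for HMMR and chr5:160421605-160421854 for PTTG1. CCNB2, PLK1 and HMMR show the hexamer close to the start, downstream of 4, 1 and 5 CCAAT boxes, respectively. In HMMR the hexamer is repeated without a gap, and a pair of its CCAAT boxes on opposite strands overlap, as does a pair in PTTG1. CCNB1 shows 2 CCAAT boxes and PTTG1 3, and neither shows either hexamer in this window. CCNB1, CCNB2, PLK1 and HMMR fell in all 3 groups, whereas PTTG1 fell in 2 of them. A match is a description of the letters, and binding was not measured.

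Of the 7 genes for cyclins, CDK1 and its switches, 6 fell labelled luteolin, 5 labelled gefitinib and 7 with both drugs. CCNA2 encodes cyclin A2, which acts in S phase and G2. Its value was -0.10 and -0.08 at 0 h, 0.20 and 0.19 with DMSO, -2.50 and -3.06 labelled luteolin, -2.84 and -2.43 labelled gefitinib, and -1.37 and -1.79 labelled luteolin plus gefitinib. All 6 drug-treated arrays were below all 4 controls, and the pair with both drugs was the highest of the 3. CCNA2 had the largest fall of the well-measured genes in the samples labelled luteolin, by 2.97 (SE 0.24, adjusted p = 0.000413, limma), and fell by 2.83 labelled gefitinib (adjusted p = 0.000144). With both drugs it fell by 1.78 (adjusted p = 0.00186).

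CDK1, the kinase of mitotic entry, was at 3.72 and 3.51 at 0 h and at 3.70 and 3.73 with DMSO. It was at 1.27 and 0.52 labelled luteolin, 2.72 and 3.15 labelled gefitinib, and 2.98 and 2.34 with both drugs. The luteolin-labelled pair stood well below every other array. CDK1 fell by 2.82 (SE 0.30, adjusted p = 0.000898) in the samples labelled luteolin and by 1.05 with both drugs (adjusted p = 0.0250), and its change of -0.78 labelled gefitinib did not pass (adjusted p = 0.0564). Its partner cyclin B1, encoded by CCNB1, was at 2.62 and 2.50 at 0 h, 3.79 and 3.46 with DMSO, 2.13 and 1.24 labelled luteolin, 1.66 and 1.87 labelled gefitinib, and 1.72 and 1.40 with both drugs. The 3 drug-treated groups overlapped one another and lay below every control array. CCNB1 fell by 1.94, 1.86 and 2.06 in that order (SE 0.29, adjusted p between 0.00173 and 0.00263).

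CCNB2 (cyclin B2) fell by 2.13, 1.02 and 2.29, but its other, dimmer probe changed by -0.62, -0.73 and -0.56 and passed in none of the groups. CCNF encodes cyclin F, a substrate receptor of a ubiquitin ligase that acts in G2. It was not well above background on either array labelled gefitinib, where it was at least 6.15-fold lower than with DMSO (adjusted p = 0.000125), and it fell by 1.78 labelled luteolin and by 1.40 with both drugs. CDC25C, one of the phosphatases that activate CDK1, was at -1.19 and -1.47 at 0 h, -0.71 and -0.77 with DMSO, -2.52 and -3.23 labelled luteolin, -2.18 and -1.55 labelled gefitinib, and -2.36 and -3.06 with both drugs. All 6 drug-treated arrays lay below the controls, and it fell by 2.13, 1.12 and 1.97 (SE 0.33, adjusted p at most 0.0202). Its relative CDC25B had another order. CDC25B was at 2.13 and 2.26 at 0 h, 2.597 and 2.41 with DMSO, 3.09 and 2.98 labelled luteolin, 1.63 and 1.86 labelled gefitinib, and 1.32 and 1.32 with both drugs. The luteolin-labelled pair was the highest of all and the pair with both drugs the lowest. Its change of 0.53 labelled luteolin had an adjusted p of 0.0423 and was under the 2-fold minimum, and it fell by 1.19 with both drugs (SE 0.16, adjusted p = 0.00184). Labelled gefitinib, CDC25B changed by -0.76 (adjusted p = 0.0054, limma), also under the 2-fold minimum, with both arrays below both with DMSO.

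**Figure D2:**
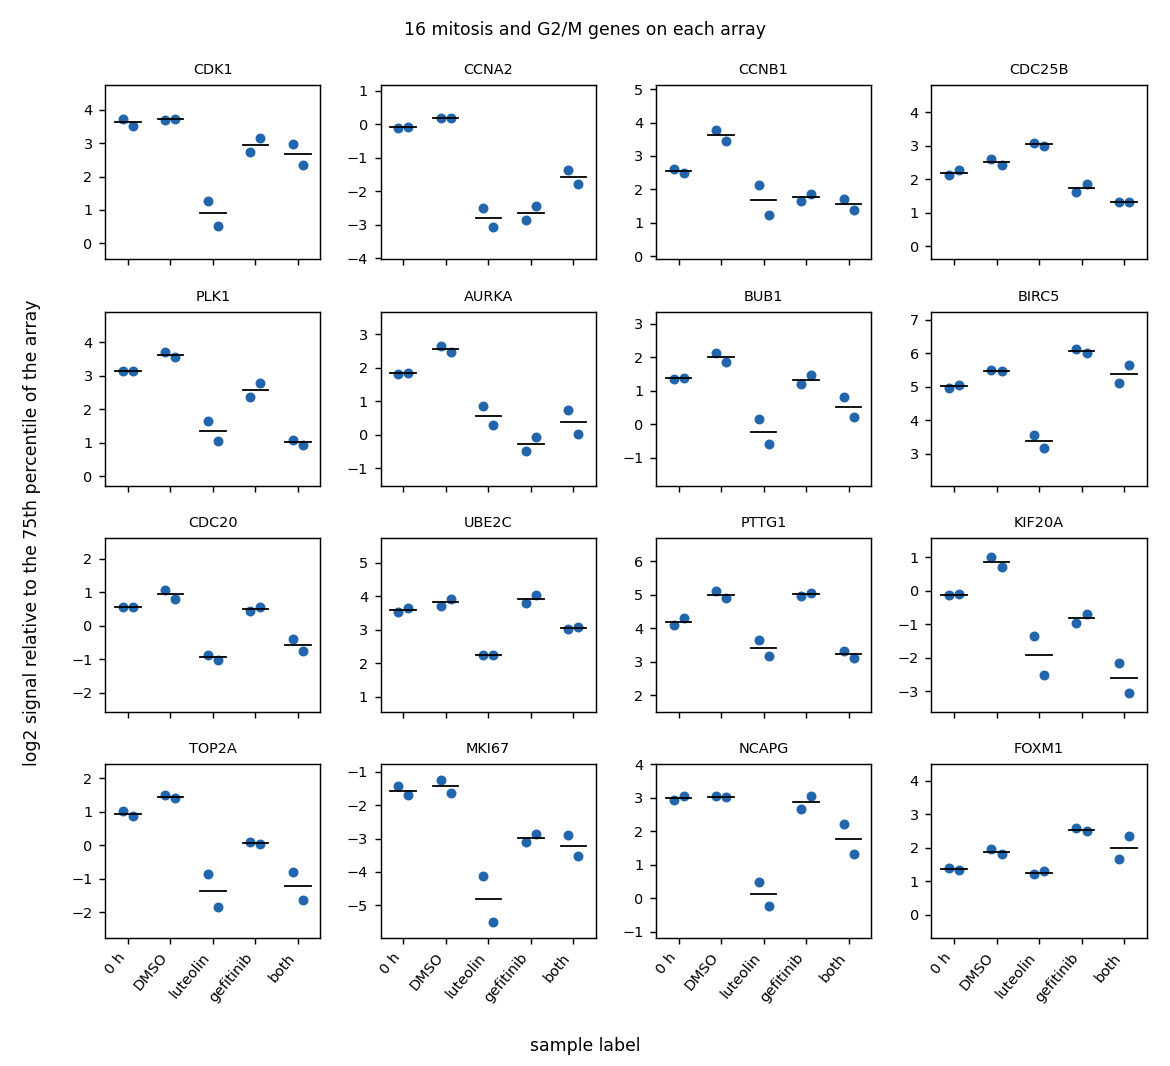
Log2 signal less the 75th percentile (vertical axis) of 16 genes in the 5 groups (horizontal axis, "both" being luteolin plus gefitinib), with a point for each array and a bar at the mean of the 2. Every panel spans the same number of log2 units. By the group means, BUB1, CDC20, TOP2A and MKI67 have the group order of CDK1 and NCAPG, and the other panels show other orders.

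Among the 7 mitotic kinases and spindle checkpoint genes, 7 fell labelled luteolin, 3 labelled gefitinib and 5 labelled luteolin plus gefitinib. PLK1, the polo-like kinase that promotes mitotic entry and spindle assembly, was at 3.13 and 3.14 at 0 h, 3.70 and 3.56 with DMSO, 1.66 and 1.06 labelled luteolin, 2.35 and 2.77 labelled gefitinib, and 1.08 and 0.93 with both drugs. The gefitinib-labelled pair lay between the controls and the other drug-treated arrays. PLK1 fell by 2.27, 1.07 and 2.62 (SE 0.23, adjusted p at most 0.00607). AURKA, the Aurora kinase of the spindle poles, had another order. It was at 1.83 and 1.84 at 0 h, 2.66 and 2.47 with DMSO, 0.86 and 0.28 labelled luteolin, -0.50 and -0.06 labelled gefitinib, and 0.73 and 0.01 with both drugs. It had the largest fall of the well-measured genes in the samples labelled gefitinib, where it fell by 2.84 (SE 0.29, adjusted p = 0.000299), against 1.99 labelled luteolin and 2.19 with both drugs.

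BUB1, a kinase of the spindle checkpoint, was at 1.36 and 1.39 at 0 h, 2.14 and 1.86 with DMSO, 0.16 and -0.60 labelled luteolin, 1.19 and 1.47 labelled gefitinib, and 0.82 and 0.21 with both drugs. It fell by 2.21 labelled luteolin (SE 0.29, adjusted p = 0.00172) and fell by 1.48 with both drugs (adjusted p = 0.00670). The gefitinib-labelled pair lay around the 0 h arrays, and its change of -0.67 against DMSO did not pass (adjusted p = 0.0834). MAD2L1, the checkpoint protein that binds CDC20, was at 1.30 and 1.34 at 0 h, 1.60 and 1.42 with DMSO, -0.51 and -1.02 labelled luteolin, 1.43 and 1.27 labelled gefitinib, and 0.78 and 0.46 with both drugs. It fell by 2.27 labelled luteolin (adjusted p = 0.000582). Its gefitinib-labelled pair overlapped DMSO, and its change of -0.89 with both drugs had an adjusted p of 0.0126 and was under the 2-fold minimum. TTK, the kinase MPS1 of the same checkpoint, fell by 1.88 labelled luteolin and by 2.03 labelled gefitinib, and its change with both drugs was -0.77 (adjusted p = 0.0786). BUB1B and the centrosomal kinase NEK2 fell by 2.37 each labelled luteolin and by 1.37 and 2.25 with both drugs.

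The chromosomal passenger complex, which corrects faulty chromosome attachments and later guides cytokinesis, was split. AURKB, its kinase, was at -0.57 and -0.74 at 0 h, -0.72 and -0.77 with DMSO, -3.12 and -3.87 labelled luteolin, -1.13 and -0.83 labelled gefitinib, and -1.80 and -2.23 with both drugs. It fell by 2.75 labelled luteolin (SE 0.27, adjusted p = 0.000638) and by 1.27 with both drugs (adjusted p = 0.00838). Labelled gefitinib its change was -0.23 (adjusted p = 0.478), although both arrays lay below both with DMSO. BIRC5 encodes survivin, a passenger subunit that also inhibits cell death, and its pattern was unlike that of AURKB. It was at 4.96 and 5.06 at 0 h, 5.51 and 5.46 with DMSO, 3.56 and 3.18 labelled luteolin, 6.11 and 6.02 labelled gefitinib, and 5.12 and 5.64 with both drugs. The gefitinib-labelled pair was the highest and the luteolin-labelled pair the lowest of all arrays. BIRC5 fell by 2.11 labelled luteolin (SE 0.21, adjusted p = 0.000752), and its change of 0.58 labelled gefitinib had an adjusted p of 0.0456 and was under the 2-fold minimum. INCENP, the scaffold of the complex, fell by 1.55 and by 1.32 with either label alone, and its change with both drugs was -0.44 (adjusted p = 0.0993).

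At the kinetochore, where chromosomes meet the spindle, CENPF was at 3.102 and 3.19 at 0 h, 3.96 and 3.76 with DMSO, 2.30 and 1.47 labelled luteolin, 1.997 and 2.42 labelled gefitinib, and 2.599 and 2.03 with both drugs. It fell by 1.97, 1.65 and 1.54 (SE 0.30, adjusted p between 0.00319 and 0.00678), and the 3 groups overlapped. The centromeric histone CENPA fell by 1.87, 1.77 and 2.39. The kinetochore motor CENPE was at 0.42 and 0.46 at 0 h, 1.12 and 0.95 with DMSO, -0.62 and -1.27 labelled luteolin, -0.72 and -0.46 labelled gefitinib, and -1.40 and -2.14 with both drugs. The pair with both drugs was the lowest, and there it fell by 2.80 (SE 0.29, adjusted p = 0.000900), against 1.98 labelled luteolin and 1.62 labelled gefitinib.

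Of 4 genes of the anaphase-promoting complex and separase, 4 fell labelled luteolin, 1 labelled gefitinib and 3 labelled luteolin plus gefitinib. CDC20, the activator of the anaphase-promoting complex, was at 0.55 and 0.56 at 0 h, 1.07 and 0.81 with DMSO, -0.87 and -1.02 labelled luteolin, 0.44 and 0.55 labelled gefitinib, and -0.41 and -0.75 with both drugs. It fell by 1.88 labelled luteolin (SE 0.18, adjusted p = 0.000601) and by 1.52 with both drugs (adjusted p = 0.00123). UBE2C, the ubiquitin-conjugating enzyme of the complex, was at 3.54 and 3.65 at 0 h, 3.71 and 3.92 with DMSO, 2.24 and 2.25 labelled luteolin, 3.78 and 4.05 labelled gefitinib, and 3.00 and 3.09 with both drugs. It fell by 1.57 labelled luteolin (SE 0.16, adjusted p = 0.000833). Its change of -0.77 with both drugs had an adjusted p of 0.00866 and was under the 2-fold minimum, and the gefitinib-labelled pair overlapped DMSO.

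PTTG1 encodes securin, the inhibitor of separase that this complex destroys. It was at 4.09 and 4.29 at 0 h, 5.10 and 4.91 with DMSO, 3.65 and 3.18 labelled luteolin, 4.96 and 5.05 labelled gefitinib, and 3.33 and 3.097 with both drugs. The gefitinib-labelled arrays lay within the range of DMSO, with a change of 0.00 (SE 0.20, adjusted p = 0.998), whereas PTTG1 fell by 1.59 labelled luteolin (adjusted p = 0.00150) and by 1.79 with both drugs (adjusted p = 0.00115). Separase itself, encoded by ESPL1, fell in all 3 groups, by 1.60, 1.76 and 1.34.

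Of the 8 kinesins, the motors that slide and pull spindle microtubules, 8 fell labelled luteolin, 6 labelled gefitinib and 7 labelled luteolin plus gefitinib. KIF20A, which acts at the central spindle, was at -0.13 and -0.11 at 0 h, 1.01 and 0.71 with DMSO, -1.35 and -2.51 labelled luteolin, -0.96 and -0.68 labelled gefitinib, and -2.16 and -3.04 with both drugs. It had the largest fall of all 49 genes with both drugs, by 3.46 (SE 0.40, adjusted p = 0.00117), or 11-fold, against 2.79 labelled luteolin and 1.68 labelled gefitinib. KIF11, the motor that separates the spindle poles, was at 0.62 and 0.50 at 0 h, 0.95 and 0.84 with DMSO, -0.82 and -1.75 labelled luteolin, -1.25 and -0.96 labelled gefitinib, and -0.61 and -1.84 with both drugs. It fell in all 3 groups, with changes of -2.18, -2.001 and -2.12 (SE 0.41, adjusted p at most 0.00703). Its other probe changed by -0.97 labelled gefitinib (adjusted p = 0.0493, limma) and by -0.93 with both drugs (adjusted p = 0.0674). Both changes were under the 2-fold minimum, and that with both drugs also missed the adjusted p.

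KIF23, a subunit of centralspindlin, was at 1.84 and 1.88 at 0 h, 2.23 and 2.08 with DMSO, 0.12 and -0.46 labelled luteolin, 0.94 and 1.04 labelled gefitinib, and 1.30 and 1.03 with both drugs. It fell by 2.33 labelled luteolin (SE 0.21, adjusted p = 0.000568) and by 1.17 labelled gefitinib. KIF4A, a chromosome-bound motor, fell by 2.21 labelled luteolin and by 1.58 with both drugs, and its change labelled gefitinib was -0.03 (adjusted p = 0.934), with overlapping arrays. KIF2C, which takes microtubules apart, and the motors KIF14, KIF15 and KIF18A fell by 1.65 to 2.52 labelled luteolin.

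**Figure D3:**
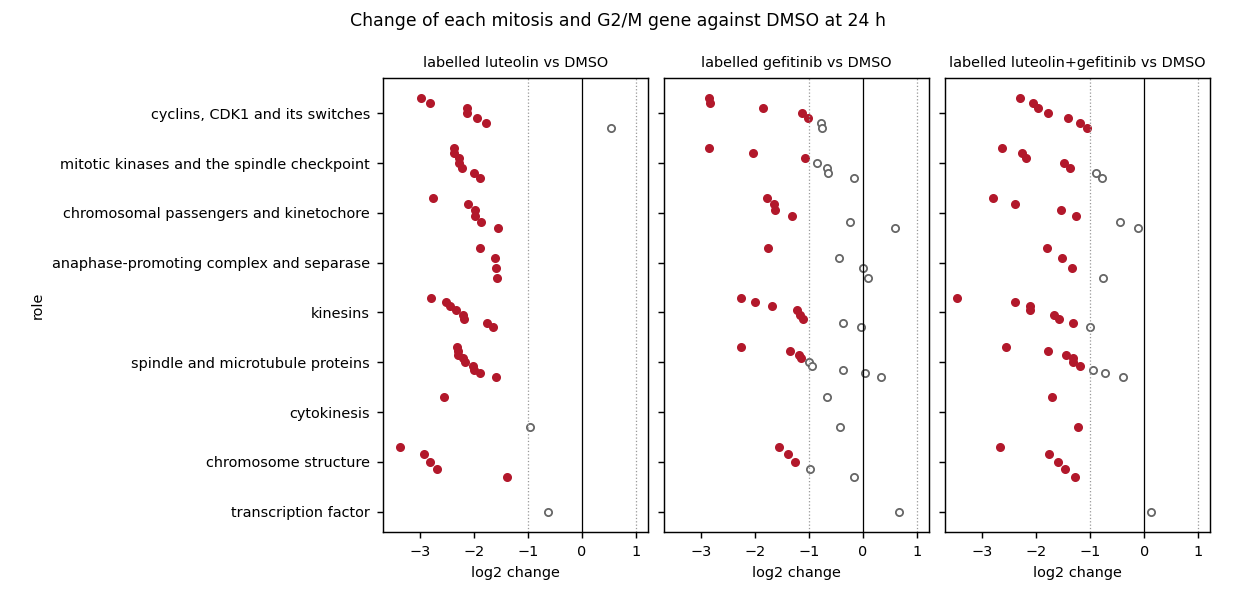
Log2 change against DMSO (horizontal axis) of each of the 49 genes, by role (vertical axis), in the samples labelled luteolin, gefitinib and luteolin plus gefitinib. Filled points passed an adjusted p under 0.05 with a change of at least 2-fold (dotted lines), and the filled points, 46, 26 and 39 in the 3 panels, are all on the side of a fall.

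Of 9 spindle and microtubule proteins, 9 fell labelled luteolin, 4 labelled gefitinib and 6 labelled luteolin plus gefitinib. TPX2, which activates Aurora A on the spindle, was at 2.10 and 2.24 at 0 h, 2.73 and 2.62 with DMSO, 0.81 and 0.15 labelled luteolin, 2.31 and 2.30 labelled gefitinib, and 1.82 and 1.66 with both drugs. It fell by 2.19 labelled luteolin (SE 0.22, adjusted p = 0.000752), and its change of -0.94 with both drugs was under the 2-fold minimum (adjusted p = 0.0123). HMMR, a spindle protein and hyaluronan receptor, was at 1.91 and 1.95 at 0 h, 2.66 and 2.57 with DMSO, 0.89 and 0.02 labelled luteolin, 1.23 and 1.70 labelled gefitinib, and 0.55 and -0.44 with both drugs. It fell by 2.16, 1.15 and 2.56 (SE 0.37, adjusted p at most 0.0289). ASPM, a spindle pole protein, was at 1.21 and 1.07 at 0 h, 1.65 and 1.36 with DMSO, -0.25 and -1.33 labelled luteolin, -0.72 and -0.79 labelled gefitinib, and 0.07 and -0.63 with both drugs. It fell by 2.26 labelled gefitinib (adjusted p = 0.00176), by 2.30 labelled luteolin and by 1.78 with both drugs. PRC1, which bundles microtubules at the midzone, was at 2.78 and 2.74 at 0 h, 3.096 and 3.02 with DMSO, 1.40 and 0.96 labelled luteolin, 3.28 and 3.50 labelled gefitinib, and 2.51 and 2.18 with both drugs. It fell by 1.88 labelled luteolin (adjusted p = 0.000895), and both gefitinib-labelled arrays lay above both with DMSO, with a change of 0.33 that did not pass (adjusted p = 0.189). With both drugs, PRC1 changed by -0.72, under the 2-fold minimum. NUSAP1, a microtubule-binding protein, fell by 1.997 labelled luteolin and by 1.19 with both drugs, and its gefitinib-labelled arrays overlapped DMSO at a change of 0.03. CKAP2, GTSE1, SPAG5 and TACC3 fell by 1.58 to 2.32 labelled luteolin. CKAP2 also fell in the other 2 groups, but its other probe changed by -0.73 labelled gefitinib and did not pass (adjusted p = 0.0614, limma).

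For cytokinesis, ANLN, which links actin and myosin in the contractile ring, was at 0.97 and 0.67 at 0 h, 1.22 and 0.99 with DMSO, -1.06 and -1.82 labelled luteolin, 0.39 and 0.50 labelled gefitinib, and -0.18 and -1.03 with both drugs. ANLN fell by 2.55 labelled luteolin (SE 0.32, adjusted p = 0.00153) and by 1.71 with both drugs (adjusted p = 0.00578). Its change of -0.66 labelled gefitinib did not pass (adjusted p = 0.115). ECT2, the exchange factor that activates RhoA at the cleavage furrow, fell by 1.22 with both drugs. Another of its probes changed by -0.84 there, under the 2-fold minimum. Labelled luteolin, its other 2 probes fell by 1.16 and 1.12, where the brightest did not pass the 2-fold minimum.

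Genes of chromosome structure had the deepest median in the samples labelled luteolin, -2.80, and all 5 fell there and with both drugs. MKI67, the gene of the proliferation marker Ki-67, was at -1.42 and -1.71 at 0 h, -1.25 and -1.63 with DMSO, -4.12 and -5.50 labelled luteolin, -3.11 and -2.86 labelled gefitinib, and -2.88 and -3.53 with both drugs. It was well above background on 1 of the 2 arrays labelled luteolin and on every other array. MKI67 fell by 3.37 labelled luteolin (SE 0.42, adjusted p = 0.00142), the largest value among the 49 genes, and by 1.55 and 1.77 in the other groups (adjusted p = 0.0147 and 0.0128). TOP2A, the topoisomerase that untangles sister chromatids, was at 1.01 and 0.87 at 0 h, 1.499 and 1.40 with DMSO, -0.86 and -1.85 labelled luteolin, 0.09 and 0.03 labelled gefitinib, and -0.81 and -1.64 with both drugs. It fell by 2.80, 1.38 and 2.67 (SE 0.35, adjusted p at most 0.0110), with the gefitinib-labelled pair between the controls and the other drug-treated arrays.

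NCAPG, a subunit of condensin I, was at 2.94 and 3.06 at 0 h, 3.05 and 3.03 with DMSO, 0.48 and -0.25 labelled luteolin, 2.66 and 3.06 labelled gefitinib, and 2.20 and 1.33 with both drugs. The gefitinib-labelled arrays overlapped DMSO, at a change of -0.17 (adjusted p = 0.672). NCAPG fell by 2.92 labelled luteolin (SE 0.33, adjusted p = 0.00102) and by 1.27 with both drugs (adjusted p = 0.0172). Its partner NCAPH fell by 2.69 and 1.47 in the same groups, and SMC4, the ATPase of both condensins, fell by 1.39, 1.25 and 1.60, although its other probe did not pass labelled luteolin.

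FOXM1, the transcription factor that activates many of these genes in G2, did not fall with them. It was at 1.41 and 1.33 at 0 h, 1.95 and 1.80 with DMSO, 1.22 and 1.29 labelled luteolin, 2.59 and 2.49 labelled gefitinib, and 1.67 and 2.34 with both drugs. The gefitinib-labelled pair was the highest of all arrays and the luteolin-labelled pair was the lowest. None of its changes reached 2-fold, at -0.62 labelled luteolin (adjusted p = 0.0699), 0.66 labelled gefitinib (adjusted p = 0.0324) and 0.12 with both drugs (adjusted p = 0.668). DLG7, the older symbol of DLGAP5, fell by 2.44, 1.64 and 2.39 in the 3 groups (SE 0.42, adjusted p at most 0.0117).

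The vehicle alone was compared with untreated cells to see how far the controls differ. No mitotic gene passed the threshold in limma (0 lower and 0 higher, against 0.00955% and 0.0239% of all genes). At an unadjusted p under 0.05 in limma, 9 were higher and 0 lower, against 1280 of all 20952 genes in either direction. Both DMSO arrays were nevertheless above both 0 h arrays for 41 of 49 genes and below both for 0, against 23.2% and 25.3% of all genes, and the median change was 0.39, where that of all genes was -0.02. CCNB1 had the largest difference, 1.06 (SE 0.29, adjusted p = 0.528), followed by KIF20A, at 0.98. The choice of control therefore bears on the counts. Against the 0 h arrays, 42 of 49 genes fell and 0 rose labelled luteolin (7.89% and 8.01% of all genes), 13 labelled gefitinib (14.4%) and 31 labelled luteolin plus gefitinib (8.2%, with 11.5% of all genes higher). Labelled gefitinib, 2 rose against 0 h (15.1% of all genes), BIRC5 by 1.05 and FOXM1 by 1.17.

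Direct comparison of the drug-treated groups showed the gefitinib-labelled samples to hold more of most mitotic mRNAs than those labelled luteolin. In the gefitinib-labelled samples, 30 of 49 were higher and 2, CCNF and CDC25B, were lower, against 19.3% and 17.7% of all genes. The median difference was 1.16, where that of all genes was 0.19. CCNF was not well above background on either array labelled gefitinib, where it was at least 1.80-fold lower, a bound under the 2-fold minimum, and with normexp or with a filter to probes bright on every array 1 gene was lower. Within the slide that held both, the median difference was 0.69. With both drugs, 15 were higher and 1 was lower than labelled luteolin (11.3% and 9.44% of all genes), with a median of 0.51 (0.19 for all genes). Against the samples labelled gefitinib, 15 were lower and 3 higher with both drugs (9.63% and 17.1% of all genes), with a median of -0.62 (-0.14 for all genes). With the slide as a block, 25 were higher and 3 lower labelled gefitinib than luteolin, and 10 were lower with both drugs than labelled gefitinib. The counts moved with single arrays. Without the second luteolin replicate, the 30 became 19 and the first 15 became 8, and without the second replicate of both drugs the other 15 became 5. By the treatments in the file names, the directions of gefitinib against luteolin and of both drugs against gefitinib turn, with medians of -0.51 and 1.16, and that of both drugs against luteolin does not, with a median of 0.62. By file name, 46 of 49 genes fell with gefitinib, 39 with luteolin and 26 with both drugs.

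The effect of giving both drugs was then set against the sum of their separate effects on the log2 scale. The change with both drugs was less negative than the sum for 47 of 49 genes, and 34 of 49 lay above the sum and 1 below it in the interaction test of limma (adjusted p under 0.05), against 17.8% and 15.9% of all genes. The gene above the sum by most was CCNA2, by 4.03 (SE 0.34, adjusted p = 0.000263), where the 2 single changes were each nearly 3 log2 units. Its sum, -5.80, would take it to about the lowest signals well above background. For CCNF and MKI67, also above the sum, the sums were -4.62 and -4.92. CCNF was not well above background on either array labelled gefitinib, nor MKI67 on 1 array labelled luteolin. A value at the sum could thus hardly be measured for these genes. The gene below the sum was CDC25B, by 0.96 (adjusted p = 0.0130). For 13 genes the change with both drugs was more negative than either single change, for 26 it lay between them and for 10 it was less negative than either. The difference from the sum did not pass for PLK1 (0.71, SE 0.33, adjusted p = 0.125), KIF20A (1.01, SE 0.56, adjusted p = 0.195) or PTTG1 (-0.20, SE 0.28, adjusted p = 0.6003). By file name, where another pair of arrays stands for the combination, 45 genes lay above the sum and 0 below it. Without the first DMSO replicate, 21 lay above it.

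**Figure D4:**
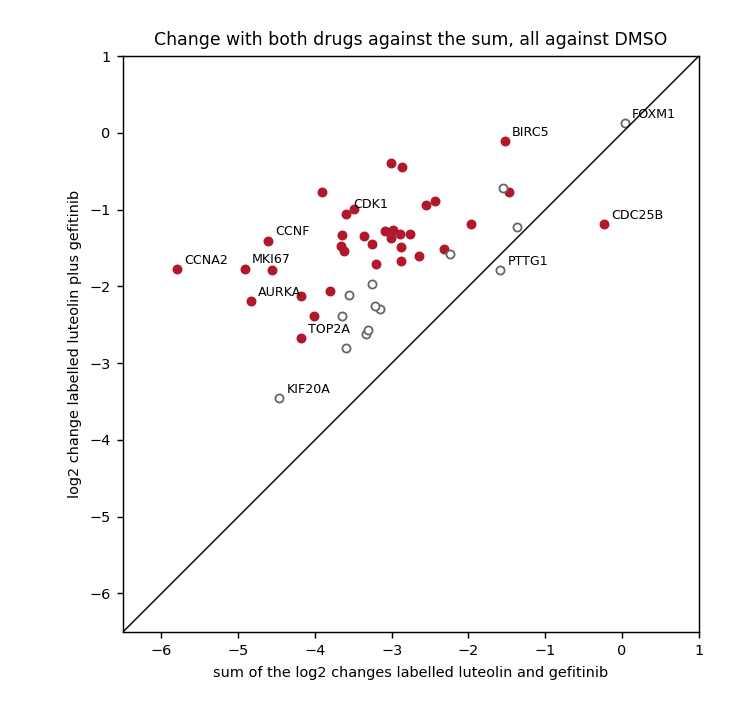
Log2 change against DMSO labelled luteolin plus gefitinib (vertical axis) against the sum of the changes labelled luteolin and gefitinib (horizontal axis) for each of the 49 genes, on equal scales. The line marks equality, filled points passed the interaction test, and all but CDC25B and PTTG1 lie above the line.

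Other genes of the cell cycle were read for comparison from lists chosen by function, with earlier results of these data known. Of 34 other mitotic genes tested, 31 fell labelled luteolin, 13 labelled gefitinib and 17 with both drugs, and 1 rose, CKS1B labelled gefitinib (1.08). For this list and the next, the shares of all genes that fell were 6.13%, 14.1% and 7.45%, and 16.6% rose labelled gefitinib. Their medians were -2.004, -0.56 and -1.01, and the largest falls were those of the kinetochore subunits SPC25 (-4.003) and SPC24 (-3.18) labelled luteolin and of FBXO5 (-3.24), an inhibitor of the anaphase-promoting complex, labelled gefitinib. Of 44 DNA replication and S phase genes, 39 fell labelled luteolin, 9 labelled gefitinib and 6 with both drugs, and 5 rose labelled gefitinib, a smaller share than that of all genes. Their medians were -1.87, 0.12 and -0.36, where those of the mitotic genes were -2.13, -1.07 and -1.48. RRM2 (-4.69) and UHRF1 (-4.37) had the largest falls labelled luteolin. In the comparison of DMSO with 0 h, 0 of the 44 S phase genes passed in limma, with a median change of -0.36 where that of the mitotic genes was 0.39. At an unadjusted p under 0.05 in limma, 13 of the 44 differed, against 1280 of all 20952 genes.

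**Figure D5:**
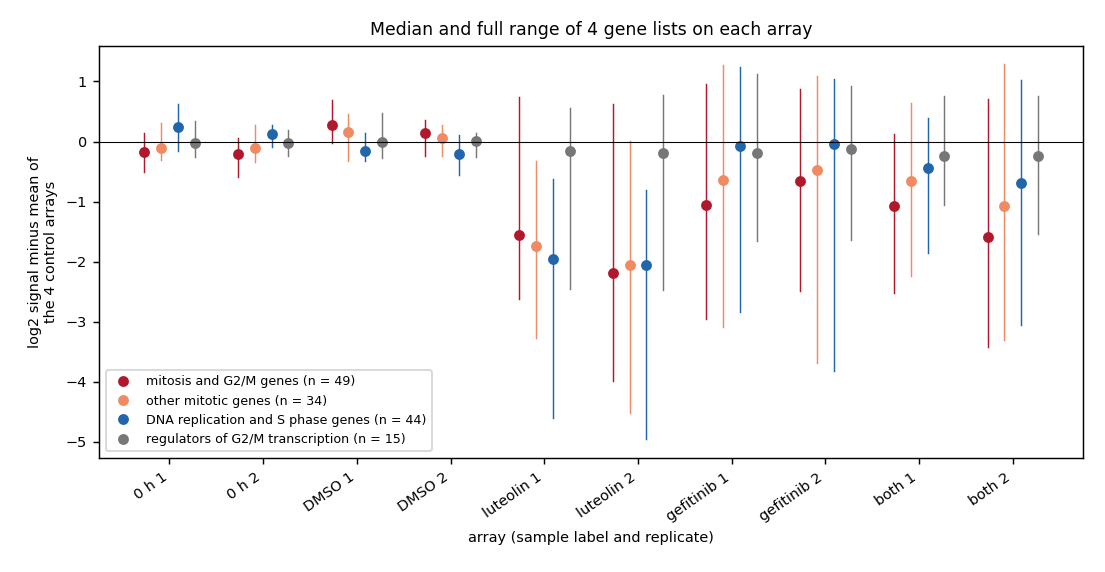
Log2 signal minus the mean of the 4 control arrays (vertical axis) on each array (horizontal axis, "both" being luteolin plus gefitinib) for 4 lists, with a point at the median of the list and a line from its lowest to its highest gene. On the arrays labelled gefitinib the median of mitosis and G2/M genes was -1.05 and -0.65, and that of S phase genes was -0.08 and -0.05.

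Of 15 regulators of G2/M transcription, 4 fell labelled luteolin, 2 labelled gefitinib and 1 with both drugs, and 1 rose, RBBP4 labelled gefitinib (1.10). Labelled gefitinib and with both drugs, these counts are near or under the shares of all genes, 14.1% and 7.45% lower and 16.6% higher. MYBL2, which activates G2/M genes with the MuvB core, fell by 2.33 labelled luteolin (SE 0.25, adjusted p = 0.000950), and the pocket protein RBL1 by 1.73. Labelled gefitinib, NFYA, a subunit of the factor that binds CCAAT boxes, fell by 1.73 (SE 0.15, adjusted p = 0.000170) and E2F5, a repressor in the DREAM complex, by 1.46.

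Most mitotic genes varied together over the 10 arrays, which includes the differences between groups given above and is no separate result. The correlation of a gene with the mean of the other 48 over the 10 arrays had a median of 0.90 and exceeded 0.9 for 25 of 49 genes, and it was lowest for CDC25B, at -0.04. As a description of arrays that share their groups, the outside genes most like the mean of the 49 were BC013295 (r = 0.993), NDC80 (0.988), the probe A_32_P128399 (0.988), CASC5 (0.986) and HMGB2 (0.982). NDC80 and CASC5 encode proteins of the outer kinetochore, and HMGB2 a DNA-bending chromatin protein.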

How the data were processed

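Arrays were grouped by their sample labels. As deposited by the authors, the scanner files of Agilent Feature Extraction (10.7.3.1 in the file headers) hold processed intensities on a linear scale, background-subtracted and not normalized between arrays. The table of values deposited by the authors equals them for 45015 of 45015 spots on every array. Spots marked as outliers were left out, spots of a probe were averaged as log2 intensity minus the 75th percentile of the array, and the 28774 of 41000 probes that both arrays of 1 or more groups placed well above background were kept. Groups were compared in R 4.3.3 with limma 3.58.1 on all 10 arrays (5 residual and 3.36 prior degrees of freedom), with Benjamini-Hochberg adjustment over all probes kept. A call required a 2-fold change as well as an adjusted p under 0.05, except for the interaction, which required only the latter. The authors' methods name a 1-sample test of fold changes, with no normalization or threshold for these arrays. For an "at least" fold, a dim array was given its own signal or the lowest one well above background there, whichever was higher. The genes, their roles and the comparison lists were chosen with earlier results of these data known. The genes given array by array are 24 chosen for their roles and, against DMSO, the 3 largest falls and rises well above background. Of several probes the brightest was used, and other probes are named where their calls differ. The analysis was tested on simulated data. Some marker genes of the cell line are not reported here. With 2 arrays per group, their number limits the precision. Alternatives were normexp (offset 50), quantile normalization, other filters, the value table, replicate number and slide as blocks, only the groups compared, the file names, no minimum fold, 0 h as reference, the median over probes, the methods' test and leaving out each array, where a lone array is assumed to vary like the other groups.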

Additional observations from a re-analysis of the deposited data

Results flagged for a closer look

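The change of the mitosis and G2/M genes with one drug differed according to whether the other was present. In the interaction test of limma, 34 of the 49 genes lay above the sum of the 2 single log2 changes and 1, CDC25B, lay below it, against 17.8% and 15.9% of all genes. Without the first DMSO replicate, 21 lay above it. For CCNA2, CCNF and MKI67, a value at the sum would lie at or near background. The groups share the DMSO arrays, and by the file names the arrays that stand for the combination are others.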

How the results depend on the processing

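The alternatives were counted against the values of the report. For single genes, a value was counted as kept if its call (lower, higher or neither) was the same. Under the alternatives that kept all arrays, 744 of 753 were kept, other than with the file names (56 of 84) and 0 h as reference (67 of 84). The sign of a change with no call in either setting was not compared. By file name, the median change against DMSO was -1.48 for luteolin (39 lower), -2.13 for gefitinib (46 lower) and -1.07 for both drugs (26 lower). Gefitinib against luteolin then gave 15 lower and 1 higher (median -0.51), both drugs against luteolin 3 lower, both drugs against gefitinib 2 lower and 30 higher (median 1.16), and 0 genes lay below additivity in limma. CDC25B changed by -1.19 with luteolin, BIRC5, PRC1, PTTG1 and UBE2C by -2.11, -1.88, -1.59 and -1.57 with gefitinib, and PTTG1 by 0.000877 with both drugs. With 0 h as reference, the median was -1.68 labelled luteolin and -0.58 labelled gefitinib (13 lower, 2 higher). With normexp, 1 gene was lower labelled gefitinib than luteolin, and 9 were lower and 1 higher with both drugs than labelled gefitinib. Probes well above background on all arrays left 1 gene lower labelled gefitinib than luteolin. With no minimum fold, 1 gene was higher labelled luteolin, 2 labelled gefitinib, and 2 were lower with both drugs than labelled luteolin. Within the slide of the first replicates, the median of gefitinib against luteolin was 0.69. The methods' t-test gave 0, 0 and 0 lower genes after adjustment and 6, 3 and 1 unadjusted, with 2 higher labelled gefitinib.

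Without 1 array, the lower counts against DMSO were 44 to 46, 17 to 27 and 32 to 43, with medians of -2.49 to -1.81, -1.29 to -0.86 and -1.79 to -1.25. Gefitinib against luteolin gave 1 to 3 lower and 19 to 31 higher (median 0.87 to 1.45), and both drugs against luteolin 1 to 3 lower and 8 to 21 higher (median 0.23 to 0.83). Both drugs against gefitinib gave 5 to 20 lower and 1 to 5 higher (median -0.82 to -0.49). Above additivity were 21 to 39 and below it 0 to 1. DMSO against 0 h had a median of 0.33 to 0.46. Deviations of samples with the same replicate number correlated at -0.098 to 0.293 over all probes kept, and over 0.1 for 6 of 10 pairs of groups. The main test did not treat the samples as paired, and these correlations do not exclude a pairing. With the replicate number as a block 16 in place of 15 genes were lower with both drugs than labelled gefitinib, with no other count moved. The causes of these differences were not tested. Genes near background, such as MKI67 and CCNF, have less certain folds, and 2 arrays per group limit all tests.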
